A study of Mus musculus with 24 samples.

Results

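The 9 genes described here encode AP-1 transcription factor subunits: Fos, Fosb, Fosl1, Fosl2, Jun, Junb, Jund, Atf3 and Maff. They were listed by name, and the list itself used no measured value, but earlier results of these data were known when it was set. The authors had already reported Fos, Jun and Atf3 among the raised genes. Related bZIP genes such as Atf2, Batf, Jdp2, Mafg and Mafk were put in a separate list, described below. All 9 members were among the 27958 genes tested. They were read by 10 of the 55681 probes on the array, 1 probe for each gene and a second for Fosl2. RNA came from 24 whole kidneys of young male mice, 6 from mgb+/+ controls and 18 from age-matched mgb-/- animals. The mgb-/- (megabladder) mouse is a model of congenital obstruction, in which a bladder without tone leads to hydronephrosis, the dilation of the kidney by retained urine. By the degree of hydronephrosis, graded on ultrasound, 7 of the mgb-/- kidneys were mild, 5 moderate and 6 severe. Each kidney was hybridized in a single color to its own Agilent array, with no statement in the labels on how many mice gave 1 or both of their kidneys. All kidneys were snap frozen whole, so a difference in the number of cells of a type and a difference in RNA per cell cannot be told apart.

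AP-1 is not 1 protein but a family of dimers that bind DNA through a basic region and a leucine zipper. Jun proteins pair with each other and with Fos proteins, while Fos proteins need a partner. Atf3 can pair with Jun proteins and often represses its targets, and Maff is a small Maf protein that lacks a transactivation domain of its own. Most of these genes are immediate early genes, which are transcribed within minutes of a stimulus without new protein synthesis. In the kidney they are known to respond to stretch, obstruction, ischemia and growth factors.

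Every value below is a log2 signal of 1 kidney after the 75th percentile of its array was subtracted, so 0 is that percentile, and a difference between groups is a difference of such values. Levels of different genes come from different probes and were not compared. There were 3 slides of 8 arrays, and every slide held 2 control kidneys beside 6 mgb-/- ones. Between 55.4% and 70.7% of probes stood well above background on an array, and no spot was saturated. All 8 markers of the proximal tubule were well above background on all 24 arrays, so the kidney label is borne out by its main epithelium. In 7 mgb-/- kidneys (mild replicates 2, 4, 5, 6 and 7 and moderate replicates 1 and 3) the adrenal enzymes Cyp11a1 and Cyp11b1 were both well above background, which was so in no control and no severe kidney. Counts of called members, of members between grades, of correlated pairs and of called immediate early genes are given with and without them. Most other values include them.

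The start regions of 6 members with a raised signal are shown because they hold TGACG or a sequence close to TGACGTCA, the element that CREB/ATF proteins and some AP-1 dimers are known to bind. RefSeq (GRCm38.p6) gave a start for 8 of the 9 members, with 3 for Maff. Each line holds the 150 bases before the start, 5′ to 3′ on the strand of the gene, in lower case. Capitals mark a match, on either strand, to TGANTCA, TGACGTCA, TTCNNNGAA, the CArG box, TGACG or TGACGTCA with at most 1 mismatch. The last motif includes TGACGTCA itself, and TGACG overlaps both.
Fos, chr12:85473740-85473889, plus strand: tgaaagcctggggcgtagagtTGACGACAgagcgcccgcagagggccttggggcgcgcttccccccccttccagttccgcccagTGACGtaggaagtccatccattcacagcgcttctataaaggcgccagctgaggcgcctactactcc
Fosb, chr7:19310046-19310195, minus strand: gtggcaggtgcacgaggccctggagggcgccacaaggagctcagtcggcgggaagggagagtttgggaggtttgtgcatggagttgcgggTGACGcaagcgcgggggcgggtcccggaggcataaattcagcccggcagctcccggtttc
Jun, chr4:95052223-95052372, minus strand: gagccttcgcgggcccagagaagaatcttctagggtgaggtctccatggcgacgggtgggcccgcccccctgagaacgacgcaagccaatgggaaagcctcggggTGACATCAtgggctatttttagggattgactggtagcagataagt
Junb, chr8:84978749-84978898, minus strand: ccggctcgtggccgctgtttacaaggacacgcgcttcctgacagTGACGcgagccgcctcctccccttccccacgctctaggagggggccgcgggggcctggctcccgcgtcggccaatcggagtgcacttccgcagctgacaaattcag
Atf3, chr1:191183334-191183483, minus strand: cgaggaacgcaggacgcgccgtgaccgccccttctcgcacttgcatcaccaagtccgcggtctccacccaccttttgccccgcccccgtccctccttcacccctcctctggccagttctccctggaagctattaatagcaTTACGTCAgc
Maff, the second of its starts, chr15:79347370-79347519, plus strand: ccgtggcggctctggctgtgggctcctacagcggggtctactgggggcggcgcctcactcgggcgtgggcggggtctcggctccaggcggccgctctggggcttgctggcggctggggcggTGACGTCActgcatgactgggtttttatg

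Over the 300 bases from 250 before to 50 after a start, 6 of the 10 member promoters held TGACG, against 20.8% of all 32851 mouse promoters. They belong to 5 members, since Maff enters with more than 1 start. A sequence within 1 mismatch of TGACGTCA stood in 5 of the 10, those of 4 members, against 12.5% of all. In Fos the TGACG nearest to the start lay at positions -66 to -62, in Jun TGACATCA lay at -45 to -38, and in Atf3 TTACGTCA lay at -10 to -3. Maff held the perfect palindrome TGACGTCA at -29 to -22 of its second start, a motif found in 1.79% of all promoters. Within these 300 bases no member promoter held TGANTCA, found in 7.81% of promoters, or the CArG box bound by serum response factor, found in 1.63%. Bases farther from a start were not searched, so sites there are not covered. TTCNNNGAA, the spaced palindrome known from STAT proteins, stood in 1 of the 10, against 8.30% of all. The 2 CREB/ATF motifs, TGACG and the near match to TGACGTCA, were added after the sequences had been seen. Their shares in members are therefore a description and cannot be weighed against those of all promoters. A match describes letters and was not tested as a site.

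Of the 9 members, 7 were called higher in mgb-/- than in control kidneys, at an adjusted p under 0.05 and at least 2-fold. Over all genes the same call was met by 1.82%. The called genes were Fos, Fosb, Fosl2, Jun, Junb, Atf3 and Maff, and no member was called lower, a call met by 1.26% of all genes. The median difference of the 9 members was 2.06 on the log2 scale, beside 0.01 for all genes tested. In 5 members, Fos, Fosb, Jun, Junb and Atf3, every one of the 18 mgb-/- kidneys lay above every control kidney, which was so for 0.347% of all genes. Without the 7 kidneys with adrenal enzymes, a fit chosen after the data had been seen, the same 7 members were called, against 0.773% of all genes.

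**Figure D1:**
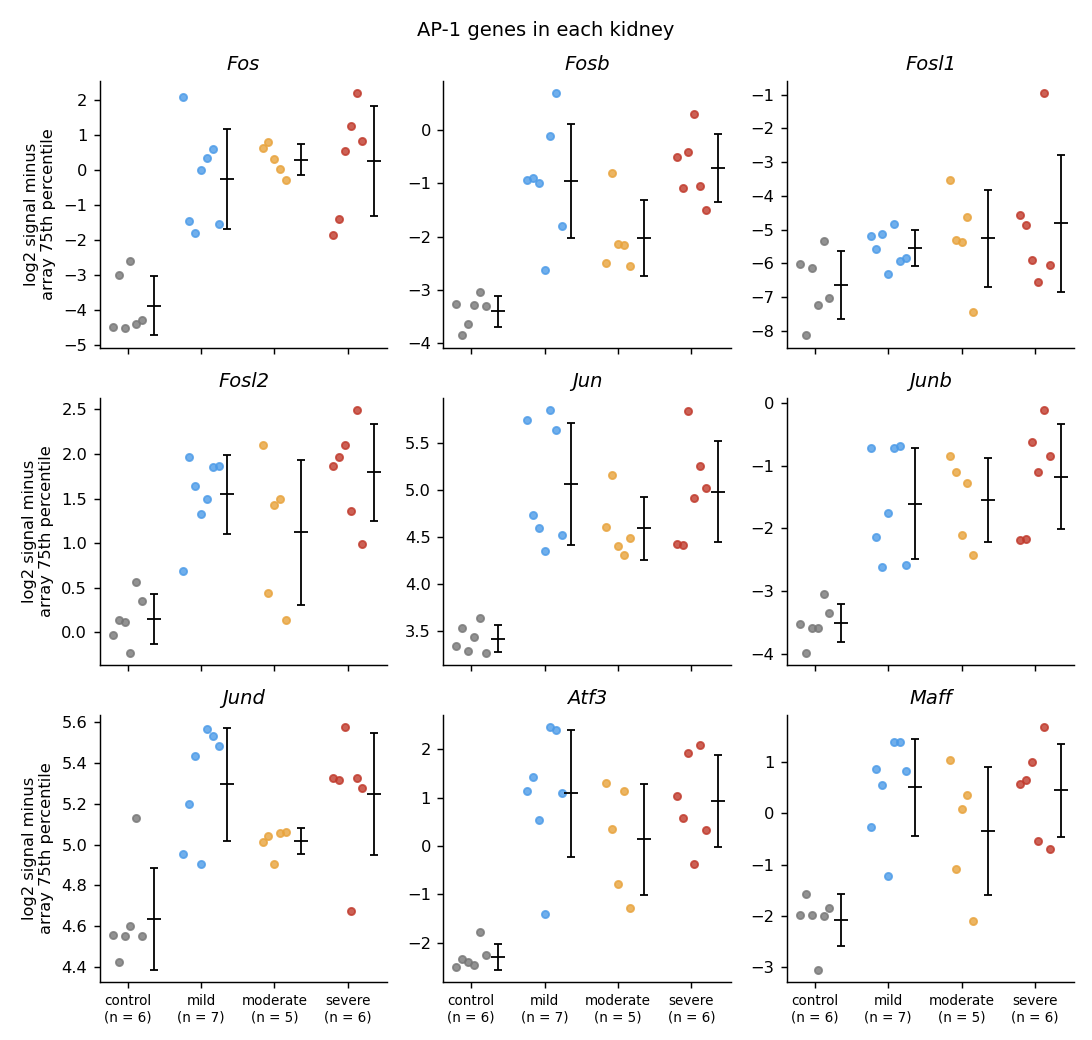
Log2 signal minus the 75th percentile of the array (y axis, scales differ between panels) for each AP-1 gene in every kidney, by group (x axis); points are kidneys and bars are mean and SD. Control kidneys sit below all mgb-/- kidneys for Fos, Fosb, Jun, Junb and Atf3, whereas Fosl1, Fosl2, Jund and Maff overlap with the controls.

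Among the Fos proteins, Fos itself, the founding member of the family, changed most. Control kidneys ranged from -4.49 to -2.59 with a median of -4.33. Mild kidneys ranged from -1.80 to 2.09 (median 0.01) and severe kidneys from -1.87 to 2.19 (median 0.68). The 5 moderate kidneys lay at 0.61, 0.81, 0.32, 0.01 and -0.28. No mgb-/- kidney overlapped with a control. In 3 mild and 2 severe kidneys Fos lay between -1.87 and -1.40, and in the other mgb-/- kidneys it lay at -0.28 or higher. Fos was 3.94 higher in mgb-/- kidneys (SE 0.53, 15.4-fold, adjusted p = 1.42e-04, limma), and within the slides the difference was between 3.50 and 4.27. Over the alternative settings it ranged from 2.785 to 4.199, so its fold depends on these choices. The probe is printed 10 times on the array, and on the control arrays, where Fos was dimmest, the SD over these spots was between 0.10 and 0.35 on the log2 scale. Between kidneys the SD was 0.85 in controls and 1.25 in mgb-/-.

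Fosb encodes a Fos protein whose truncated form is long-lived. Its control values ran from -3.85 to -3.04 with a median of -3.30. Mild kidneys lay between -2.63 and 0.69 (median -0.94), and severe kidneys between -1.50 and 0.30 (median -0.78). In the moderate kidneys it read -2.49, -0.81, -2.14, -2.16 and -2.55, so that 4 of the 5 lay below every severe kidney. Fosb was 2.23 higher in mgb-/- kidneys (SE 0.40, 4.68-fold, adjusted p = 0.00159).

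Fosl2 and Fosl1 encode Fra-2 and Fra-1, Fos-related proteins without the strong activation domain of Fos. Fosl2 ranged from -0.23 to 0.57 in control kidneys and from 0.14 to 2.49 in mgb-/- kidneys, and 16 of 18 lay above the highest control. The 2 exceptions were moderate replicate 2 at 0.45 and moderate replicate 5 at 0.14. Fosl2 was 1.36 higher (SE 0.26, 2.56-fold, adjusted p = 0.00256) on its brighter probe. On the dimmer probe the difference was 0.41 (SE 0.23), and with the mean of both probes it was 0.88 and passed the adjusted p but stood under the 2-fold minimum, so the probes disagree on its size.

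Fosl1 was dim. It was well above background in none of the 6 control kidneys and in 9 of the 18 mgb-/- kidneys. The fitted difference of 1.43 (SE 0.59) did not pass the test (adjusted p = 0.107). Over the alternative settings this difference ranged from 0.404 to 1.693. With the controls set to their background limit, the mean of the mgb-/- kidneys was 1.49-fold higher. That bound is a difference of means without an error of its own, so a smaller difference is not excluded. In 1 kidney, severe replicate 5, which enters that mean, Fosl1 read -0.96, while the other severe kidneys lay between -6.56 and -4.57. That kidney also had the highest mean over 7 leukocyte markers, 0.79 where the other severe kidneys ranged from -1.85 to -1.32, and the lowest mean over 8 proximal tubule markers, 5.07. Their part in the Fosl1 signal was not tested.

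Among the Jun proteins, Jun and Junb rose, and Jund passed the adjusted p alone. Jun, the main partner of Fos, spread little in control kidneys, from 3.27 to 3.63 (median 3.39). Mild kidneys ranged from 4.35 to 5.85 (median 4.73) and severe kidneys from 4.42 to 5.84 (median 4.97). Moderate kidneys read 4.60, 5.16, 4.40, 4.30 and 4.48. The lowest mgb-/- kidney thus lay well above the highest control. Jun was 1.49 higher (SE 0.22, 2.81-fold, adjusted p = 4.15e-04), and the spread between mgb-/- kidneys (SD 0.55) was wider than that between controls (SD 0.14).

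Junb, which can oppose Jun at some promoters, ranged from -3.98 to -3.04 in controls (median -3.55). It ranged from -2.62 to -0.68 in mild (median -1.75) and from -2.18 to -0.12 in severe kidneys (median -0.98). The moderate kidneys read -0.85, -1.11, -2.10, -1.27 and -2.42. The mgb-/- kidneys spread over 2.50 and none of them reached the controls. Junb was 2.06 higher in mgb-/- kidneys (SE 0.33, 4.17-fold, adjusted p = 7.37e-04).

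Jund, which is known to be expressed in resting cells, had the smallest difference on the probes used, 0.57 (SE 0.13, 1.48-fold, adjusted p = 0.00636, limma). It passed the adjusted p but not the 2-fold minimum. Control kidneys ranged from 4.42 to 5.13 and mgb-/- kidneys from 4.67 to 5.58, and 10 of 18 lay above the highest control. The groups overlapped because control replicate 5 stood at 5.13 while the other controls did not exceed 4.60.

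Atf3, a stress-induced member of the ATF branch, ranged from -2.50 to -1.77 in control kidneys (median -2.36). Mild kidneys ranged from -1.41 to 2.45 (median 1.13) and severe kidneys from -0.38 to 2.10 (median 0.81). In moderate kidneys Atf3 read 1.29, 0.35, -0.79, 1.13 and -1.29. The lowest mgb-/- values, in mild replicate 4 and moderate replicate 5, still exceeded every control. Atf3 was 3.05 higher (SE 0.47, 8.31-fold, adjusted p = 4.74e-04), and its difference within a slide was between 2.83 and 3.21.

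Maff ranged from -3.05 to -1.58 in controls (median -1.99). It lay between -1.22 and 1.39 in mild (median 0.83) and between -0.69 and 1.67 in severe kidneys (median 0.61). The moderate kidneys spread most, at 1.04, -1.09, 0.08, 0.35 and -2.09. Moderate replicate 5 was the only mgb-/- kidney that did not exceed all controls. Maff was 2.33 higher in mgb-/- kidneys (SE 0.43, 5.02-fold, adjusted p = 0.00203).

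Members did not change by equal amounts. For each of the 36 pairs the difference between the 2 members was taken within each kidney and compared between mgb-/- and control kidneys by an exact two-sided permutation test over kidneys. In 19 pairs the changes differed at an adjusted p under 0.05. Of these, 2 rest on Fosl1, which no control kidney measured above background, and of the 28 pairs without Fosl1, 17 passed. On the probes used, Jund changed less than each of the other members except Fosl1. It changed by 3.38 less than Fos (adjusted p = 4.01e-04, exact) and by 2.49 less than Atf3 (adjusted p = 2.67e-04, exact). For Fosl2 the order depends on the probe, since its dimmer probe differed by 0.41 and Jund by 0.57. Fos changed by 2.45 more than Jun (adjusted p = 6.24e-04, exact) and by 1.88 more than Junb (adjusted p = 0.00141, exact). It exceeded Atf3 by 0.89 (adjusted p = 0.279, exact) and Maff by 1.62 (adjusted p = 0.0707, exact), which did not pass. Atf3 exceeded Maff by 0.73 (adjusted p = 0.0318, exact). Such values compare the responses of different probes, and their sizes depend on the processing, as that of Fos does.

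The grades were each compared with the same 6 control kidneys, so the comparisons are not independent and their values are given side by side. In mild kidneys 7 members were called higher, against 1.15% of all genes. In severe kidneys 7 were called as well, against 2.99%, and these were the same genes as in mild kidneys: Fos, Fosb, Fosl2, Jun, Junb, Atf3 and Maff. In moderate kidneys 4 were called, Fos, Jun, Junb and Atf3, against 0.529%. The difference of Fos from control was 3.62 in mild kidneys (SE 0.64), 4.17 in moderate ones (SE 0.70) and 4.13 in severe ones (SE 0.66). For Atf3 it was 3.37 (SE 0.54), 2.42 (SE 0.59) and 3.21 (SE 0.56). Junb differed by 1.90, 1.96 and 2.33 in the same order, and Jun by 1.65, 1.18 and 1.56.

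**Figure D2:**
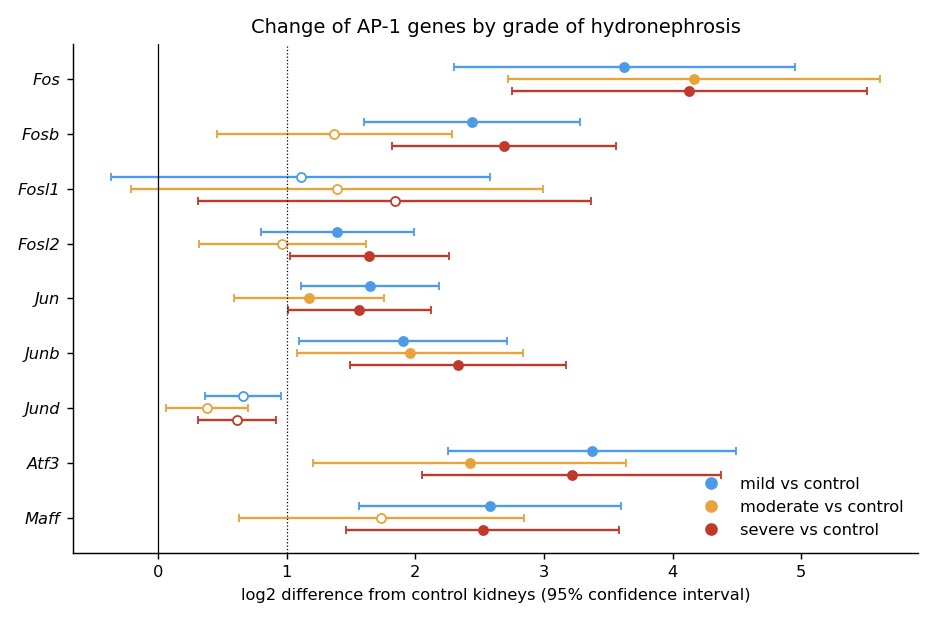
Log2 difference from the 6 control kidneys (x axis) for each AP-1 gene (y axis) in mild, moderate and severe kidneys, with 95% confidence intervals; filled points passed the call and the dotted line marks 2-fold. The intervals of the 3 grades overlap for every gene.

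The moderate calls were fragile. Leaving out any 1 control kidney took the count from 4 to 1, or to 2 without control replicate 5, and leaving out moderate replicates 1, 3 or 4 took it to 1, 2 and 1. Fos was called in each of these. Without the kidneys with adrenal enzymes, 2 mild and 3 moderate kidneys remained and no member was called in either grade by limma (0 of 9 each, against 0.0143% and 0.00715% of all genes). At an unadjusted p under 0.05 there were 8 members in mild and 6 in moderate kidneys, against 12.1% and 6.12% of all genes. The difference of Fos from control was then 4.02 in mild (adjusted p = 0.159) and 4.05 in moderate kidneys (adjusted p = 0.289). In severe kidneys, none of which had adrenal enzymes, 7 members were called in that fit, against 2.5% of all genes.

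Between the grades no member was called. The call was met by 0 members between moderate and mild kidneys (background 0%), severe and mild (0.461%), and severe and moderate (0.00715%), and 0 had a slope on the grade (0.232%). At an unadjusted p under 0.05, limma gave 1, 0, 2 and 0 members in these fits, where 6.67%, 11.1%, 10.4% and 8.64% of all genes had such a p. Without the kidneys with adrenal enzymes no member was called either. The unadjusted counts were then 0, 0, 3 and 0, against 4.74%, 3.53%, 14.4% and 2.99% of all genes. With all kidneys, the unadjusted values include Fosb, which was 1.07 lower in moderate than in mild kidneys (SE 0.43, adjusted p = 0.626) and 1.32 higher in severe than in moderate kidneys (SE 0.44, adjusted p = 0.313). For Fos the 95% interval of the severe minus mild difference ran from -0.82 to 1.83, for Jun from -0.62 to 0.45, and for Atf3 from -1.27 to 0.96. In the order of group means, control was lowest for all 9 members. Moderate came next for Fosb, Fosl2, Jun, Jund, Atf3 and Maff, mild came next for Fos, Fosl1 and Junb, and no pair of grades passed the adjusted test for any member.

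Urothelium markers moved with the grade in the same kidneys, where 6 of 9 were called in severe against mild kidneys, all higher, and 5 of 9 on the slope. Of these 9 markers 3 were called higher in mgb-/- kidneys as a whole, and by grade 0 of 9 in mild, 2 of 9 in moderate and 9 of 9 in severe. Their mean level ranged from -1.65 to -0.02 in control, -1.46 to 1.57 in mild, -0.57 to 1.85 in moderate and 1.73 to 3.56 in severe kidneys, and all 9 were well above background on every array. Of 6 markers of smooth muscle and myofibroblasts, 2 (Acta2 and Tagln) were called higher in mgb-/- kidneys, with mean levels from 0.40 to 1.36 in control and 0.31 to 2.70 in mgb-/- kidneys, and 0 of 6 were called between grades or had an adjusted p under 0.05 on the slope (limma). The mean over 7 leukocyte markers, of which Ptprc had the lowest adjusted p (0.272, limma), ranged from -2.03 to -1.47 in control and from -2.24 to 0.79 in mgb-/- kidneys. Of 2 red cell markers tested, 1, Alas2, was called, at 1.14 higher in mgb-/- kidneys (SE 0.32, adjusted p = 0.0221, limma), and it was called in severe kidneys. Of 5 collecting duct markers, 1, Aqp2, was called higher in mild and in severe kidneys, where the list medians were 0.37 and 0.22. Of 8 proximal tubule markers, 1, Slc5a2, was called lower in severe kidneys (-1.16, SE 0.34, adjusted p = 0.0270, limma). The differences of the 8 ranged there from -1.23 to 0.01. The part of these cells in the AP-1 signals was not tested.

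Among the 18 mgb-/- kidneys some pairs of AP-1 genes varied together and for others no correlation passed the test. Pearson correlations were computed for all 36 pairs, with two-sided permutation p-values adjusted over them, and 13 pairs passed, all positive. By rank 11 passed, of which 10 passed both. Fos went with Junb (r = 0.86, rho = 0.83, adjusted p = 1.80e-04, permutation) and with Jun (r = 0.59, rho = 0.60, adjusted p = 0.0352, permutation). Junb went with Jun (r = 0.74, rho = 0.72, adjusted p = 0.00558, permutation). A second set joined Maff with Fosl2 (r = 0.87, rho = 0.86, adjusted p = 1.80e-04, permutation) and with Atf3 (r = 0.86, rho = 0.90, adjusted p = 2.40e-04, permutation). Atf3 also went with Jund (r = 0.69, adjusted p = 0.0117, permutation).

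The sets were named after the correlations had been seen, so a count across them is a description and not a test. Over the 12 pairs of Fos, Junb or Jun with Fosl2, Jund, Atf3 or Maff, r ranged from -0.33 to 0.62, and 1 pair passed, Jun with Atf3 (r = 0.62, adjusted p = 0.0255, permutation). Junb gave 0.51 with Atf3 (adjusted p = 0.0697, permutation) and 0.28 with Maff (adjusted p = 0.395, permutation). By rank Junb with Atf3 passed (rho = 0.57, adjusted p = 0.0468, permutation). Within the second set, Fosl2 with Jund did not pass (r = 0.45, adjusted p = 0.134, permutation). The 3 negative values of all 36 were those of Fos: Fos and Maff gave r = -0.08 (adjusted p = 0.824, permutation), Fos and Fosl2 gave -0.19 (adjusted p = 0.582, permutation), and Fos and Jund gave -0.33 (adjusted p = 0.288, permutation). Severe replicate 1 had the lowest Fos of the mgb-/- kidneys, -1.87, with Maff at 0.58, whereas severe replicate 4 had Fos at 1.25 and Maff at -0.54. Severe replicate 5 was highest in both, at 2.19 and 1.67. Fosb was placed in neither set. It went with Jun (r = 0.66, adjusted p = 0.0212, permutation) and with Atf3 (r = 0.56, adjusted p = 0.0473, permutation).

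**Figure D3:**
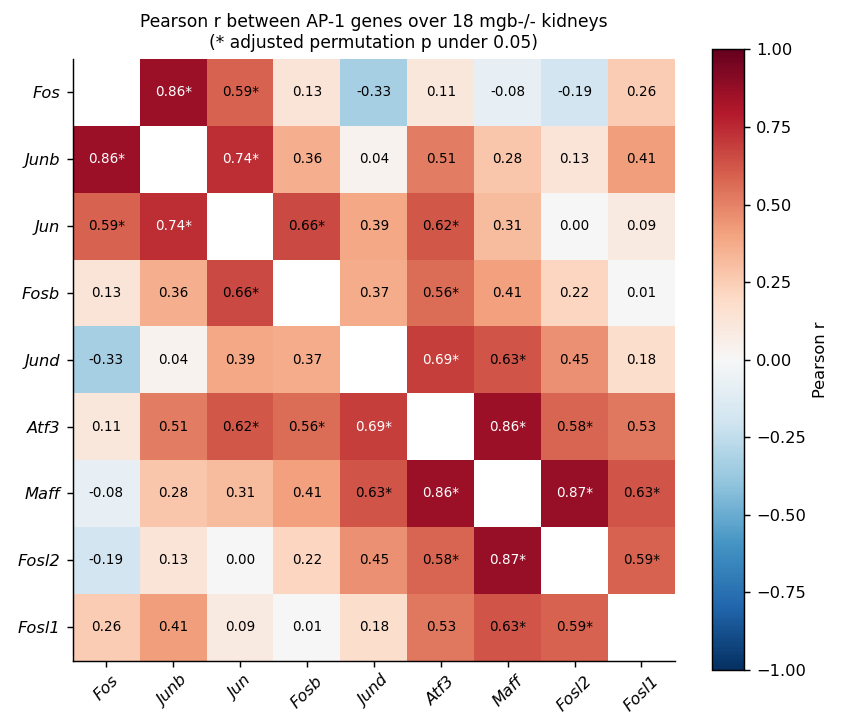
Pearson r between the log2 values of each pair of AP-1 genes over the 18 mgb-/- kidneys (color and number); an asterisk marks an adjusted permutation p under 0.05. The order of the genes was chosen after the values had been seen. Fos, Junb and Jun stand in the upper left, and Jund, Atf3, Maff and Fosl2 toward the lower right. Fosb, which passed with Jun and with Atf3, stands between them.

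The correlations of the 13 pairs were positive on each of the 3 slides, with 6 mgb-/- kidneys per slide. For Fos and Junb they were 0.93, 0.84 and 0.82, for Maff and Fosl2 0.70, 0.94 and 0.90, and for Atf3 and Maff 0.82, 0.97 and 0.78. With each grade centered on its own mean, Fos and Junb gave 0.87 and Fosl2 and Maff 0.87. With the 2 kidneys farthest from the median of the first gene left out, these pairs gave 0.83 and 0.76. The pairs of Fosl1 with Fosl2 (0.59) and with Maff (0.63) dropped to 0.24 and 0.42 in that way and rest on those kidneys, and Fosb with Atf3 (0.56) dropped to 0.36. Without moderate replicate 5, 8 pairs passed, and without the 7 kidneys with adrenal enzymes, 3 passed over the remaining 11 kidneys.

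**Figure D4:**
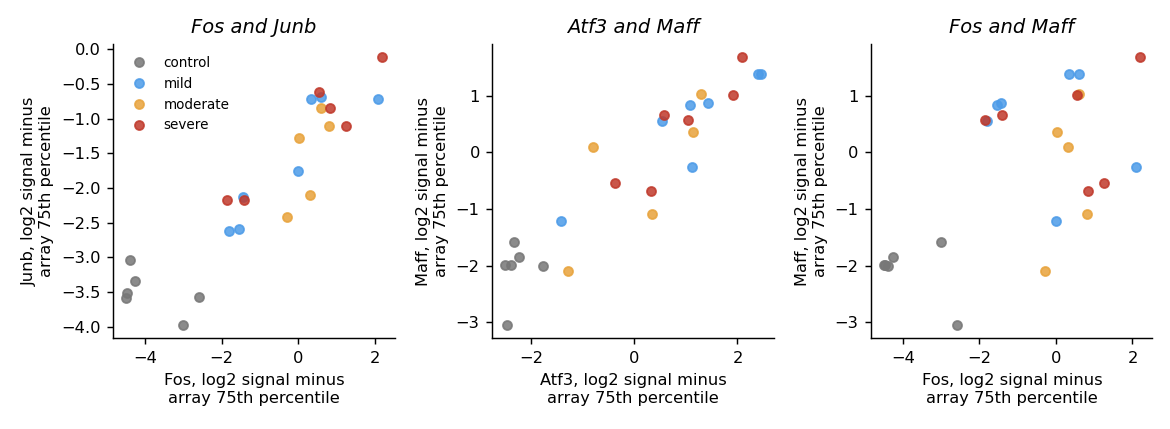
Log2 values minus the 75th percentile of the array for Fos and Junb, Atf3 and Maff, and Fos and Maff; each point is a kidney, colored by group. The first 2 pairs go together within the mgb-/- kidneys (r = 0.86 each), and Fos and Maff do not (r = -0.08).

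Genes outside the family that followed each member most closely over the 18 mgb-/- kidneys are given as a description, from 27649 genes. Ccn1, a matricellular protein (r = 0.88), the chemokine Ccl4 (0.88), Zfp458 (0.85), the early transcription factor Egr1 (0.83) and Oas2 (0.83) were most like Fos. For Junb they were Ier2 (0.94), Egr1 (0.89) and Ier5l (0.88), and for Jun they were Csrnp1 (0.94), Btg2 (0.90) and Ier2 (0.87). For Maff they were the cell cycle inhibitor Cdkn1a (0.93), Arid5a (0.91) and Vps37b (0.89). Atf3 was most like Adamts1 (0.89), Ppp1r15a, which acts in the integrated stress response (0.88), and Snhg1 (0.88). Fosl2 was most like Sema6b (0.92), Rnd3 (0.92) and Snx33 (0.90). For Fosl1 they were Adgrg5 (0.95), Rcn1 (0.93) and Tpm4 (0.91), at 0.82, 0.75 and 0.70 without the 2 kidneys farthest from its median. The nearest named genes to Jund were Sertad1 (0.93) and Emd (0.85), and the 3 nearest to Fosb were transcripts without a gene symbol (0.83 to 0.85).

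Genes that act around AP-1 were read from lists. Of 22 other immediate early genes tested, 15 were called higher in mgb-/- kidneys and none lower, with a median difference of 1.40. The largest were Egr2 (4.15, SE 0.41), Egr1 (3.64, SE 0.45), Nr4a1 (3.20, SE 0.41) and Btg2 (2.20, SE 0.26). These encode early transcription factors and, in Btg2, an antiproliferative protein. By grade, mild kidneys had 13 called, moderate 5 and severe 16, and without the kidneys with adrenal enzymes 10 were called over all mgb-/- kidneys.

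Of 25 kinases and factors that act upstream of AP-1, such as the MAP kinases, Srf and Elk1, none was called at 2-fold by limma. Their median difference was 0.01. By the adjusted p alone 2 were higher, Srf (0.66, adjusted p = 0.0140, limma) and Elk4 (0.41, adjusted p = 0.00558, limma). By the same rule 3 were lower, Mapk10 (-0.63, adjusted p = 0.0475), Mapk14 (-0.46, adjusted p = 0.0167) and Map2k2 (-0.37, adjusted p = 0.0340). The activity of these proteins was not measured. Of 14 other bZIP proteins that can pair with AP-1, 1 was called, Cebpb, which was 1.58 higher (SE 0.20, 2.99-fold, adjusted p = 7.41e-05). Of 9 heat shock genes none was called by limma, 4 passed the adjusted p as lower, and the median was -0.38. The share of all genes that passed the adjusted p alone is not given here, so these counts stand without a background. An unadjusted p under 0.05 was met by 29% of all genes in the same comparison (limma).

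Of 26 genes known as AP-1 targets, 10 were called higher and 1 lower, with a median difference of 1.41, or 1.09 with the 4 genes that no control array measured above background set to their bound. Of the 10, Areg was measured above background in 6 mgb-/- kidneys only, and its bound is 1.26-fold, so 9 of the 10 reach 2-fold with such genes at their bound. The largest were Ivl, a component of the cornified envelope (3.79, SE 0.78), the neutrophil chemokine Cxcl1 (3.31, SE 0.61) and Ptgs2, the inducible cyclooxygenase (3.19, SE 0.43). Mmp3, a matrix metalloproteinase, was called as well, and its bound was 4.68-fold. The 1 lower gene, named after its value was seen, was the collagenase Mmp13, with -1.12 (SE 0.35, adjusted p = 0.0373). By grade, mild kidneys had 3 called targets, moderate 4 and severe 13, and 1 gene of this list, Krt5, stood in the urothelium list as well. Ivl was 3.22 higher in severe than in mild kidneys (SE 0.66, adjusted p = 0.0203), as was Sprr1a, by 2.94 (SE 0.52, adjusted p = 0.00725). Urothelium markers were higher in the same comparison, and the authors of the study count Sprr1a among the urothelial genes. The part of the urothelium in these values was not tested. Leaving out control replicate 1, 3 or 4 took the 10 called targets to 6.

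**Figure D5:**
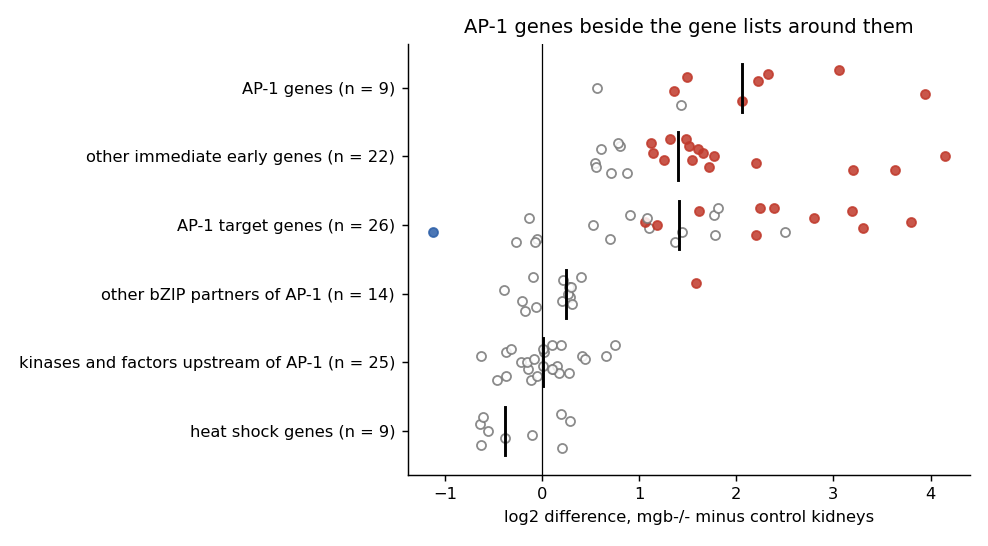
Log2 difference between mgb-/- and control kidneys (x axis) for every tested gene of 6 lists (y axis); each circle is a gene, filled where called (red higher, blue lower), and the black bar is the median of the list. AP-1 genes, other immediate early genes and AP-1 targets lie mostly to the right, with medians of 2.06, 1.40 and 1.41, and the upstream kinases center on 0.01.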

How the data were processed

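RNA of 24 mouse kidneys was read on 1-color Agilent arrays. The authors deposited the scanner output of each array (Agilent Feature Extraction 10.10), whose intensity values (processed, median and background signals) were used here, and a table of normalized intensity values in whole numbers, whose method is not given in the sources used here. Processed signals were taken to log2 and scaled by subtracting the 75th percentile of each array over non-control spots. Outlier spots were left out, repeated spots were averaged, and 38834 of 55681 probes, those that passed the scanner's test against background on 5 arrays or more, were used. RefSeq accessions named 26762 probes, and 28919 kept their accession. The brightest probe stood for a gene, which gave 27958 genes, 324 of them missing a value on at least 1 array. limma 3.58.1 in R 4.3.3 was fitted across all genes, with Benjamini-Hochberg adjustment, to mgb-/- against control, to the 4 groups and to a slope on the grade (1, 2 and 3). A call needed an adjusted p under 0.05 and at least 2-fold, the slope only the former. Nothing says that kidneys came from separate animals. Every test, the permutation tests included, took kidneys as independent units. If both kidneys of a mouse were used, the p-values could be too small. Where no control array measured a gene above background, a bound was taken against the lowest signal well above background on each array, or the gene's own signal if higher. The named genes were all 9 members, up to 4 called genes of each list with the largest change, and the closest genes by Pearson r (5 for Fos, 3 for each other member). Correlations used 100000 permutations. The fits were tested on simulated data. The members, lists and tests were chosen with earlier results of these data known. Alternatives covered the normalization, background correction, filters, probe rule, blocks, weights and left-out kidneys.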

Additional observations from a re-analysis of the deposited data

Results flagged for a closer look

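In 6 of 36 gene and group combinations, 1 kidney stood apart from the others of its group by Dixon's test, where chance flags about 1 in 20 groups. Fosb read -0.81 in moderate replicate 2 and -2.14 in the next highest moderate kidney. Fosl1 read -0.96 in severe replicate 5, above the next severe kidney at -4.57. Jund read 5.13 in control replicate 5, where the next control kidney was at 4.60, and 4.67 in severe replicate 4, below the next severe kidney at 5.28. Severe replicate 4 also had the smallest share of probes well above background, 55.4%. Atf3 read -1.77 in control replicate 5, with the next control kidney at -2.24. Maff read -3.05 in control replicate 4, below the other 5 control kidneys.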

How the results depend on the processing

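For mgb-/- against control, 37 alternatives were run, and the calls of Fos, Fosb, Jun, Junb, Atf3 and Maff held in each. Fosl2 lost its call with the mean of its probes (0.88). The sizes were less stable than the calls, with Fos between 2.785 and 4.199 and Fosb between 1.493 and 2.387. The 4 calls in moderate kidneys became 1 with scaling by the array median or with the replicate number as a block, 2 with the authors' normalized table or with no filter on dim probes, 7 with array quality weights, and 0 without the kidneys with adrenal enzymes, where the 7 mild calls also became 0 and the 13 correlated pairs 3; fewer kidneys were in these last fits, and otherwise the cause was not tested. With no fold minimum, 2 upstream kinases and factors were higher, 3 were lower, and 4 heat shock genes were lower. Leaving out 1 kidney at a time gave 7 to 7 calls in mgb-/-, 7 to 7 in mild, 1 to 6 in moderate and 7 to 8 in severe kidneys, 14 to 21 pairs of unequal change, 8 to 15 correlated pairs, 6 to 13 called targets, 14 to 15 called immediate early genes, 1 to 1 called bZIP partner, and 0 to 0 calls between grades, on the slope, among kinases and among heat shock genes. Scaling by the array median moved the median of all genes by -0.16. Fosl1 was called with array quality weights (1.27, adjusted p = 0.00737, limma). The replicate numbers did not pair the kidneys (r of same-numbered kidneys from -0.55 to 0.65, over 0.1 in 10 of 33 pairs), and with the replicate block Fosl2 lost its call in mild kidneys (adjusted p = 0.0534). Of 1355 values between grades under the alternatives, 65 had the opposite sign and none was called. A dim probe such as that of Fosl1 gives only a bound.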
